A study of Mus musculus with 6 samples.

Results

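The 49 genes described here carry proteins into mitochondria, shape the inner membrane into cristae, or fuse and divide the organelle. They were taken by gene name from the 22770 rows of the deposited counts table, by a pattern that covers the Timm, Tomm, metaxin, Chchd, Apoo, mitofusin and prohibitin names with Pam16, Samm50, Immt, Opa1, Dnm1l, Fis1 and Mff. The pattern reads gene names only. The data come from mouse round spermatids, germ cells that have finished meiosis but not yet elongated. There were 3 libraries with the genotype label Eif5a SKO and 3 wild-type (WT) libraries, each made by Smart-seq2, a method that amplifies polyadenylated RNA, from flow-sorted cells of day 28 testes, mainly at step 8. SKO is not spelled out in the labels, the table's headers call these columns cKO, and the promoter behind any Cre is not given in the sources used here. Nothing in the labels says that the 3 libraries of a group came from separate animals, so p-values measure the spread between these libraries, which may be technical.

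Nearly all mitochondrial proteins are made in the cytosol and enter through the TOM complex of the outer membrane. From there, small Tim chaperones, the TIM22 and TIM23 translocases of the inner membrane and the oxidative relay around Chchd4 sort them by type. The MICOS complex holds open the necks of the cristae, prohibitins scaffold the inner membrane, and mitofusins and Opa1 fuse mitochondria while Dnm1l with its adaptors divides them. As spermatids mature, their mitochondria come to wrap the midpiece of the tail.

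Library totals ran from 52055193 to 60970931 counts. Eif5a, the targeted gene, stood at 6.88, 6.27 and 5.35 CPM in the SKO libraries, against 701, 616 and 662 CPM in the WT libraries (edgeR adjusted p = 9.54e-08). SKO replicate 3 stood apart from its group on the second principal component (-71.4, with SKO replicates 1 and 2 at 40.3 and 37.6). All 10 round spermatid markers found in the table were expressed, with a summed level of 6564 to 7706 CPM in SKO and 5235 to 5753 CPM in WT; 5 were higher and 1 lower. Of 10 elongating spermatid markers 6 were higher and 0 lower, with sums of 5548 to 6131 CPM in SKO and 4491 to 4569 CPM in WT, and the 10 pachytene spermatocyte markers summed to 778 to 951 CPM in SKO and 956 to 970.4 CPM in WT, with 2 higher and 2 lower. Of 9 Sertoli cell markers tested 8 were higher, and their summed level was 224, 128 and 68.5 CPM in SKO replicates 1, 2 and 3 and 3 to 12.3 CPM in WT. The Sertoli markers Sox9, Wt1 and Amh were not analysed here. Leydig markers summed to 8.02 to 44.6 CPM in SKO and 1.26 to 21.6 CPM in WT, with 3 of 6 higher, and peritubular markers to 16 to 35.9 CPM in SKO and 5.15 to 12 CPM in WT, with 1 of 3 higher. No marker of these 3 lists was at 0 in every library. The part of other cells or germ cell stages in the results below was not tested. Without SKO replicate 1, where Sertoli markers were highest, 20 members were higher and 5 lower. That refit cannot decide the part of Sertoli cells, because SKO replicates 2 and 3 still held 128 and 68.5 CPM of their markers. Fewer cells of a type and less RNA per cell cannot be told apart in such pooled samples.

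Most of the import genes that moved were higher in SKO spermatids. Of the 49 members, all of which passed the filter on low counts, 22 were higher (44.9%) and 5 lower (10.2%) by edgeR's quasi-likelihood test at an adjusted p under 0.05, where 21.2% and 20.9% of all 19776 genes tested were higher and lower. Tomm5 alone passed that filter through the SKO libraries only. The median log2 fold change, SKO over WT, was 0.47 for the members and 0.012 for all genes. The 3 SKO values lay wholly above the 3 WT values for 27 members and wholly below for 7, against 27.3% and 28.3% of all genes; the groups did not overlap in either direction for 55.6% of all genes. The count of lower members was 3 without SKO replicate 2, WT replicate 1 or WT replicate 3, and 2 without WT replicate 2. Leaving out 1 library at a time gave 16 to 22 higher members, with 3064 to 4329 higher and 3025 to 4766 lower among all genes. Summed over all members, the level was 6061, 6498 and 7011 CPM in SKO and 4712, 4442 and 4667 CPM in WT. With library totals as the only scaling, the median log2 fold change of all genes was -0.228, so directions are relative to that median. Then 16 members were higher and 7 lower. Among all genes more were lower than higher under that scaling, so the 21.2% and 20.9% above are not the background for these counts.

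**Figure D1:**
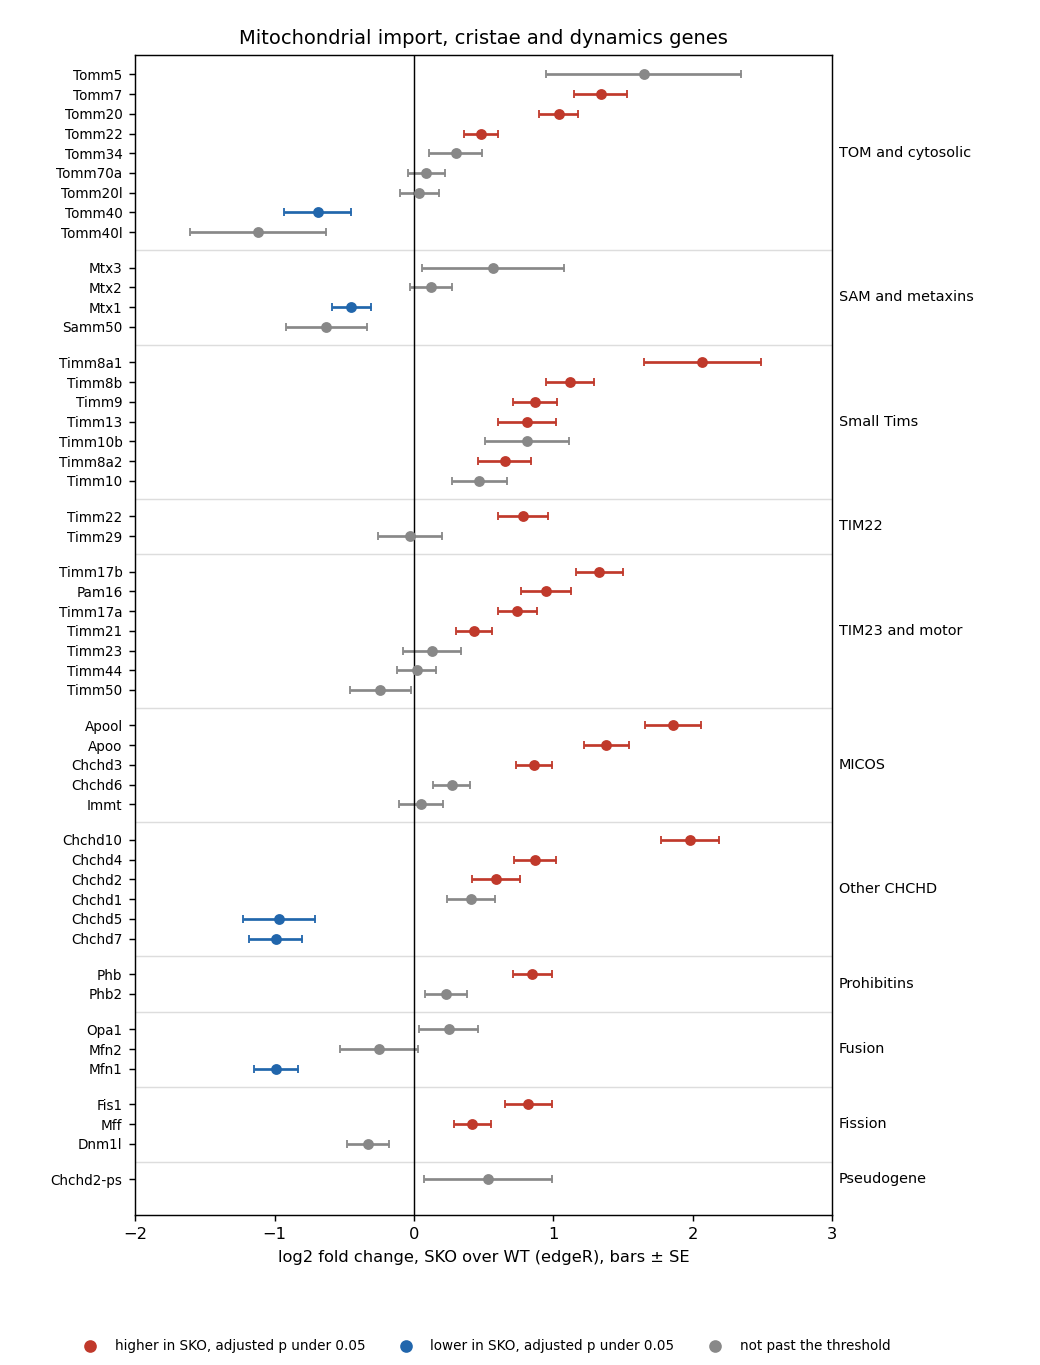
Log2 fold change of each of the 49 members (SKO over WT, points, with SE as bars), grouped by role and coloured by edgeR's call at an adjusted p under 0.05. All 7 small Tim genes and all 5 MICOS genes lie to the right of 0, with medians of 0.81 and 0.86 (Immt turns to -0.195 under library totals), while called members on the left are Tomm40, Mtx1, Chchd5, Chchd7 and Mfn1.

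The promoters of 5 members that moved or held still are shown first, because 3 of them carry the same motif and a paralog pair is among them. Each run is the 250 bases before the RefSeq start (GRCm38.p6), 5′ to 3′ on the gene's strand, with capitals marking a match to the NRF1-type motif on either strand or, in Mfn1, the ETS-type motif CCGGAAGT. NRF1 is a transcription factor known for nuclear genes of mitochondria. Tomm20 comes from chr8:126945922-126946171 (minus strand), Tomm20l from chr12:71111178-71111427 (plus), Chchd4 from chr6:91473424-91473673 (minus), Pam16 from chr16:4624947-4625196 (minus) and Mfn1 from chr3:32529232-32529481 (plus).
Tomm20: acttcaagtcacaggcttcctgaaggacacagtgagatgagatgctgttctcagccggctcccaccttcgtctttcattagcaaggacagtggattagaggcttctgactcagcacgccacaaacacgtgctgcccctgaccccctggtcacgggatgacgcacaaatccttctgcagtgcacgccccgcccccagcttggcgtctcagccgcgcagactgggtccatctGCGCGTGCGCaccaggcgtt
Tomm20l: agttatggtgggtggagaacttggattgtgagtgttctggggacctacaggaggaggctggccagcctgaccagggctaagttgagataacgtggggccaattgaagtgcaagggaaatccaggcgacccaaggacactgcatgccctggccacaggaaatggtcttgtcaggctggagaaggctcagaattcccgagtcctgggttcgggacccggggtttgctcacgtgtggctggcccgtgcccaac
Chchd4: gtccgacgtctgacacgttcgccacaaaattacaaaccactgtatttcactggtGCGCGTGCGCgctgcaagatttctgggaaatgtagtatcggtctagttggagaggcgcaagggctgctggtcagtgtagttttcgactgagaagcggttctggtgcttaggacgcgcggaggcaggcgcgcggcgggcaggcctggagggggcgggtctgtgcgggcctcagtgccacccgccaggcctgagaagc
Pam16: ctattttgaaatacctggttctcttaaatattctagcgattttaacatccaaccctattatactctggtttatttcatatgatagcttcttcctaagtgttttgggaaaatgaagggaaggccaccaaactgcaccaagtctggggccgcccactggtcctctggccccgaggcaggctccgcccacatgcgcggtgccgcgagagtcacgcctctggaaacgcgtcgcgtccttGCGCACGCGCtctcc
Mfn1: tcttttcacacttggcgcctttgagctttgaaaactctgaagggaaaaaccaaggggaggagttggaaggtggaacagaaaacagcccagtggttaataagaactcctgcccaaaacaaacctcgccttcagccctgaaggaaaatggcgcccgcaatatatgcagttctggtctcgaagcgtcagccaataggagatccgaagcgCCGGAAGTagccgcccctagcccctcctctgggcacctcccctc

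RefSeq promoters were matched for 43 members. The NRF1-type motif, which has 1 free letter, was searched on both strands like the others and found in 4 of them (9.30%), against 4.23% of all 27025 genes with a promoter and 7.57% of the 12752 that were tested. The 4 were Tomm20, Chchd4 and Pam16, which were higher, and Opa1, which was not called. The motif began 20 bases before the start in Tomm20, 15 in Pam16 and 196 in Chchd4. The ETS-type letters were found in 10 members (23.3%), against 3.23% of all genes and 5.76% of those tested; of these Fis1 and Timm8a2 were higher, Chchd5 and Mfn1 lower, and the other 6 were not called. The cAMP response element TGACGTCA, a site of the spermatid activator CREM, was in 0 of the 43 windows and in 2.78% of tested genes. None of the windows shown holds more than 1 of these motifs, and a match is a description of the letters only.

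In the TOM complex the receptor Tomm20, the central receptor Tomm22 and the small subunit Tomm7 were higher, while the channel gene Tomm40 was lower. Tomm7 stood at 451, 506 and 747 CPM in SKO, against 250.2, 205 and 218 CPM in WT (log2 fold change 1.34 ± 0.19, edgeR adjusted p = 0.000584). The groups do not overlap, and SKO replicate 3 held the highest value. Tomm20, which recognises presequences, stood at 155, 179 and 183 CPM in SKO, against 88.1, 74.7 and 89.3 CPM in WT (1.04 ± 0.14, edgeR adjusted p = 0.00037), again with no overlap. Tomm22 averaged 988 ± 51.6 CPM in SKO and 708 ± 68.2 CPM in WT (SD, n = 3 each; edgeR adjusted p = 0.0116), a call that ended without WT replicate 1 or 2 (adjusted p = 0.05 and 0.0538) and under library totals (0.122). Tomm40, which forms the pore, averaged 4.14 ± 1.24 CPM in SKO and 6.67 ± 0.446 CPM in WT (-0.69 ± 0.24, edgeR adjusted p = 0.0461). That call ended without SKO replicate 2 or any 1 WT replicate (adjusted p = 0.109, 0.0851, 0.131 and 0.102), with upper quartile factors (0.0543) and under the length and GC correction (0.216).

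Other outer membrane import genes did not pass the test. Tomm70a, the receptor for carrier proteins, averaged 188 ± 22.7 CPM in SKO and 177 ± 11.1 CPM in WT, and the co-chaperone gene Tomm34 8.25 ± 1.37 CPM in SKO and 6.72 ± 0.572 CPM in WT. Tomm34 was at 0.30 on the log2 scale (edgeR adjusted p = 0.242), but passed the test at 0.747 under the length and GC correction (adjusted p = 0.0155). Tomm5 was counted 34, 28 and 74 times in SKO libraries and 8, 8 and 36 times in WT libraries (edgeR adjusted p = 0.0861, or 0.0206 without WT replicate 3). These counts are low, and WT replicate 3 overlaps the SKO values. Tomm40l had 19, 20 and 29 counts in SKO and 87, 34 and 53 in WT (edgeR adjusted p = 0.0957); 64.34% of its exon sequence overlaps Nr1i3 on the opposite strand, so its reads cannot be assigned with certainty. In the sorting and assembly machinery, which inserts barrel proteins, the metaxin gene Mtx1 was lower, at 140.5, 109.9 and 118 CPM in SKO and 159, 177 and 167 CPM in WT (-0.45 ± 0.14, edgeR adjusted p = 0.0241). Leaving out SKO replicate 2 or any 1 WT replicate ended the Mtx1 call (adjusted p = 0.0695, 0.0631, 0.0871 and 0.0771), as did the length and GC correction (0.556). Of Mtx1 exon sequence 21.18% overlaps Gm43737 on the opposite strand, so its reads may be shared. The core gene Samm50 averaged 3.73 ± 1.33 CPM in SKO and 5.76 ± 1.18 CPM in WT (edgeR adjusted p = 0.105, or 0.00979 without SKO replicate 3), and Mtx2 and Mtx3 had adjusted p of 0.558 and 0.399.

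All 7 small Tim genes had SKO values wholly above WT, where 27.3% of all genes did. Of the 7 genes, 5 were called higher. These proteins form ring-shaped chaperones that guide hydrophobic precursors through the space between the membranes, and their summed level was 409, 433 and 602 CPM in SKO against 257, 216 and 246 CPM in WT. Timm8b, Timm9, Timm10, Timm10b and Timm8a2 have transcripts under 1000 bases. Of autosomal coding genes of up to 1194 bases, 49.8% were higher, with a median log2 fold change of 0.59. Timm8b stood at 288, 303 and 424 CPM in SKO, against 169, 139 and 160.4 CPM in WT (1.12 ± 0.17, edgeR adjusted p = 0.000793). The groups do not overlap, and SKO replicate 3 is highest. Of Timm8b exon sequence 15.64% overlaps Nkapd1 on the opposite strand, so its reads may be shared. The X-linked Timm8a1 was rare, with 86, 85 and 84 counts in SKO and 16, 18 and 38 in WT, or 1.67 ± 0.0999 CPM in SKO and 0.396 ± 0.185 CPM in WT (2.07 ± 0.42, edgeR adjusted p = 0.00358). Its autosomal relative Timm8a2 was at 11.6, 11.4 and 9.39 CPM in SKO and 8.07, 6.48 and 6.04 CPM in WT (0.65 ± 0.19, edgeR adjusted p = 0.0184). The Timm8a2 call ended without SKO replicate 1 or 2 or WT replicate 2 or 3 (adjusted p = 0.058, 0.0677, 0.071 and 0.0834), under library totals (0.0973) and under the length and GC correction (0.0794). Timm9 and Timm13, each one partner of a chaperone ring, rose by 0.87 ± 0.16 and 0.81 ± 0.21 (edgeR adjusted p = 0.0021 and 0.0117); the Timm13 call ended without WT replicate 2 (adjusted p = 0.0549) and under library totals (0.0624), and its log2 fold change was 0.49 without SKO replicate 3. Timm10, the ring partner of Timm9, averaged 21.7 ± 5.66 CPM in SKO and 15.6 ± 1.83 CPM in WT (edgeR adjusted p = 0.0876), and Timm10b, which docks at the carrier translocase, 2.15 ± 0.16 CPM in SKO and 1.23 ± 0.309 CPM in WT (edgeR adjusted p = 0.0543, or 0.0489 with upper quartile factors and 0.042 by limma-voom). Under the length and GC correction Timm10 was at 0.13 and Timm10b at 0.37 (edgeR adjusted p = 0.544 and 0.324).

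**Figure D2:**
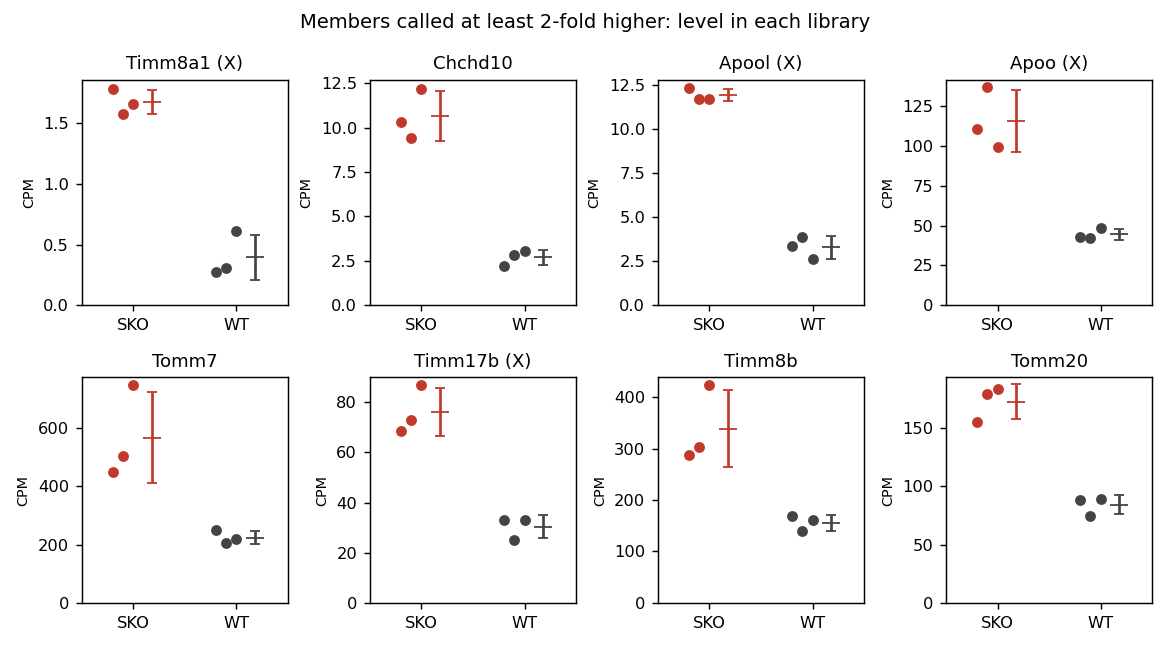
CPM of the 8 members called at least 2-fold higher, in the 3 SKO and 3 WT libraries (points, replicates 1 to 3 from left to right), with mean ± SD beside them; (X) marks X-linked genes. No SKO value overlaps a WT value, from Timm8a1 at under 2 CPM to Tomm7 at 451 to 747 CPM in SKO.

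At the inner membrane, both Timm17 genes, Pam16 and Timm22 were higher, whereas the channel gene Timm23 and the receptor and anchor genes Timm50 and Timm44 were not called. Timm17b, the X-linked partner of the Timm23 channel, stood at 68.7, 73 and 86.8 CPM in SKO, against 33, 25 and 33.2 CPM in WT (1.33 ± 0.17, edgeR adjusted p = 0.000292). Its autosomal counterpart Timm17a was at 216, 249.7 and 231 CPM in SKO and 145, 119 and 155 CPM in WT (0.74 ± 0.14, edgeR adjusted p = 0.00251). Both genes had every SKO value above every WT value. Pam16, a regulator of the import motor, reached 334, 368 and 530.4 CPM in SKO, against 221, 199 and 219 CPM in WT (0.95 ± 0.18, edgeR adjusted p = 0.00235; 0.685 without SKO replicate 3). Its reads may be shared, because Gm9803 is a near-identical copy and 18.69% of Pam16 exon sequence overlaps Glis2 on the opposite strand. Timm21 averaged 49.2 ± 3.6 CPM in SKO and 36.5 ± 1.36 CPM in WT (0.43 ± 0.13, edgeR adjusted p = 0.0279), a call that ended without SKO replicate 2 or any 1 WT replicate (adjusted p = 0.108, 0.127, 0.0669 and 0.0874), under library totals (0.283) and under the length and GC correction (0.11). Timm44 averaged 48.6 ± 0.786 CPM in SKO and 48 ± 5.64 CPM in WT, and Timm50 11.7 ± 3.14 CPM in SKO and 13.9 ± 1.62 CPM in WT. Timm23 was at 161, 176 and 141 CPM in SKO and 160.1, 98.2 and 178 CPM in WT; 5 other genes hold sequence at least 95% identical over at least 50% of its transcript, so its reads may be shared. Timm22, the carrier channel, stood at 12.2, 11.4 and 15.3 CPM in SKO and 7.85, 7.76 and 7.02 CPM in WT (0.78 ± 0.18, edgeR adjusted p = 0.00608), while its partner Timm29 averaged 3.15 ± 0.24 CPM in SKO and 3.22 ± 0.547 CPM in WT.

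Among MICOS genes the pair of X-linked apolipoprotein-like subunits and Chchd3 were higher, and the core subunit Immt (mitofilin) was not called. Apool stood at 12.3, 11.7 and 11.7 CPM in SKO, against 3.37, 3.85 and 2.6 CPM in WT (1.86 ± 0.20, edgeR adjusted p = 0.000126). Apoo stood at 111, 137 and 99.4 CPM in SKO, against 43.2, 42 and 48.7 CPM in WT (1.38 ± 0.16, edgeR adjusted p = 0.000176). In both genes the lowest SKO library was more than double the highest WT library. Chchd3, which binds mitofilin, was at 241, 278 and 274 CPM in SKO and 153, 132 and 153 CPM in WT (0.86 ± 0.13, edgeR adjusted p = 0.000738). Its relative Chchd6 was at 532, 570.4 and 685 CPM in SKO and 497, 477 and 510.2 CPM in WT, without overlap but not past the threshold (0.27 ± 0.13, edgeR adjusted p = 0.126). Immt was at 342, 313 and 236 CPM in SKO and 282, 319.9 and 258 CPM in WT (edgeR adjusted p = 0.823), so the groups overlap.

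The remaining Chchd genes went both ways. Chchd10, a small protein of the space between the membranes, stood at 10.3, 9.44 and 12.2 CPM in SKO, against 2.23, 2.81 and 3.06 CPM in WT (1.98 ± 0.21, edgeR adjusted p = 0.000116). Chchd4, the oxidoreductase that folds imported cysteine-rich proteins, averaged 20.4 ± 0.944 CPM in SKO and 11.2 ± 0.889 CPM in WT (0.87 ± 0.15, edgeR adjusted p = 0.0015). Chchd2, the relative of Chchd10, was at 239, 269.9 and 383 CPM in SKO and 205, 191 and 198 CPM in WT (0.59 ± 0.17, edgeR adjusted p = 0.0227). That call ended without any 1 WT replicate (adjusted p = 0.0645, 0.0826 and 0.0696), under library totals (0.158) and under the length and GC correction (0.0608); without SKO replicate 3 the log2 fold change of Chchd2 was 0.328. Near-identical copies of Chchd2 include Chchd2-ps, a pseudogene among the 49 rows with 31, 67 and 39 counts in SKO and 48, 25 and 37 in WT. Chchd7 was lower, at 21.8, 26.9 and 34.3 CPM in SKO against 57.7, 48.3 and 58.8 CPM in WT (-0.99 ± 0.19, edgeR adjusted p = 0.00248). Chchd5 was also lower, at 2.5 ± 0.522 CPM in SKO and 4.89 ± 1.04 CPM in WT (-0.97 ± 0.26, edgeR adjusted p = 0.0131), a call that ended without WT replicate 2 (adjusted p = 0.0641). Chchd1, a protein of the mitochondrial ribosome, averaged 32.2 ± 6.46 CPM in SKO and 24.3 ± 1.53 CPM in WT (edgeR adjusted p = 0.0837).

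Of the genes for mitochondrial shape, the fusion gene Mfn1 was lower and the fission adaptors Fis1 and Mff were higher. Mfn1, a GTPase that tethers outer membranes, stood at 24.9, 19.8 and 20.6 CPM in SKO, against 44, 48.4 and 37.5 CPM in WT (-0.99 ± 0.16, edgeR adjusted p = 0.00116). Every SKO value lay below every WT value. Mfn2 was at 58.7, 44.7 and 85.3 CPM in SKO and 73.4, 100.4 and 50.8 CPM in WT (edgeR adjusted p = 0.503), a spread of almost double within each group. Opa1, the fusion GTPase of the inner membrane, averaged 26.4 ± 4.43 CPM in SKO and 22.2 ± 5.57 CPM in WT (edgeR adjusted p = 0.372). Fis1 averaged 91.1 ± 19.2 CPM in SKO and 51.6 ± 5.46 CPM in WT (0.82 ± 0.17, edgeR adjusted p = 0.00448). Mff, an adaptor on the outer membrane, was at 770.3, 817 and 640.4 CPM in SKO and 561, 570.3 and 529 CPM in WT (0.42 ± 0.13, edgeR adjusted p = 0.0252). The Mff call ended without SKO replicate 1 or 2 or any 1 WT replicate (adjusted p = 0.0708, 0.11, 0.0902, 0.0642 and 0.108) and under library totals (0.232). Dnm1l, the GTPase that these adaptors recruit, averaged 54.4 ± 5.24 CPM in SKO and 68.3 ± 7.85 CPM in WT (-0.33 ± 0.15, edgeR adjusted p = 0.0997, or 0.00969 under library totals and 0.0227 under the length and GC correction). The prohibitin gene Phb was at 59.1, 62.9 and 71.9 CPM in SKO and 35.4, 33.1 and 38.8 CPM in WT (0.85 ± 0.14, edgeR adjusted p = 0.00133), while its ring partner Phb2 averaged 28.8 ± 1.39 CPM in SKO and 24.5 ± 2.57 CPM in WT (edgeR adjusted p = 0.227).

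Ratios between related genes, taken within a library so that scaling cancels apart from the pseudocount, separated the groups for 8 of 12 pairs. The share among other gene pairs was not computed, and among single genes 55.6% had no overlap between groups. With 3 libraries against 3, the exact permutation test, two-sided, cannot go below p = 0.1, which those 8 pairs reached (0.15 adjusted over the 12 pairs), so none can pass 0.05. Values are log2 ratios of CPM with a pseudocount of 0.5 CPM, which can shrink the difference between groups where a pair holds a rare gene. The count of separated pairs and the order of the differences are those of this scale and may change without the pseudocount. Tomm20l over Tomm20 was -0.10, -0.13 and 0.12 in SKO, against 0.94, 1.06 and 0.90 in WT, a difference of -1.0. Transcript lengths differ, so a ratio compares the groups and not the levels of its genes. Tomm20l itself was at 145, 164 and 199 CPM in SKO and 169.7, 156 and 167 CPM in WT. Chchd10 over Chchd2 was -4.47, -4.77 and -4.92 in SKO and -6.23, -5.86 and -5.80 in WT, the pair with the largest difference of the 12 on this scale (1.25). Mfn1 over Mfn2 was -1.22, -1.15 and -2.03 in SKO and -0.73, -1.04 and -0.43 in WT. Timm17b over Timm17a was higher by 0.58 in SKO, with means of -1.61 ± 0.18 in SKO and -2.18 ± 0.06 in WT. The ratios of Phb2 over Phb, Chchd6 over Chchd3, Mtx1 over Mtx2 and Timm8a2 over Timm8a1 differed by -0.61, -0.59, -0.58 and -0.67. The log2 fold changes of Timm8a2 and the rare Timm8a1 were 0.65 and 2.07, so the pseudocount shrinks the difference of that pair. Apool over Apoo, both X-linked, overlapped between groups, with means of -3.22 ± 0.24 in SKO and -3.59 ± 0.36 in WT (exact permutation p = 0.2).

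**Figure D3:**
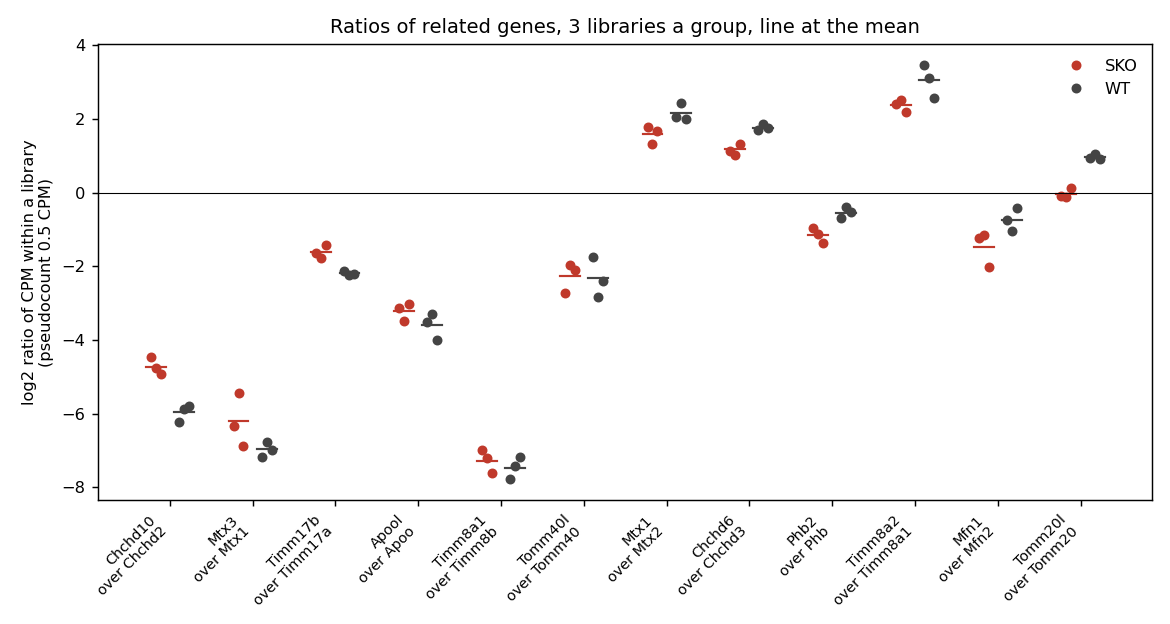
Log2 ratio of CPM between 12 pairs of related genes within each library (points; lines are means of 3 libraries), SKO in red left of WT in grey, ordered by the difference between groups. Chchd10 over Chchd2 is 1.25 higher in SKO at the left end and Tomm20l over Tomm20 1.0 lower at the right end.

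All 4 X-linked members were higher, and 4 of the 8 members that rose at least 2-fold lie on that chromosome. Timm17b begins at 7899357, Apoo at 94367117, Apool at 112311334 and Timm8a1 at 134537256 (GRCm38), so they are not neighbours. Among the 45 autosomal members 18 were higher and 5 lower, and their median was 0.42. The other 4 that rose at least 2-fold were Chchd10, Tomm7, Timm8b and Tomm20. They are a smaller share of the 45 autosomal members than the 11.7% of all genes called and at least 2-fold higher. The share among all X-linked genes was not computed. No member was called at least 2-fold lower, against 13.0% of all genes. That depends on the cut, because Mfn1, Chchd7 and Chchd5 were called lower at log2 fold changes of -0.99, -0.99 and -0.97. Under library totals, where the median of all genes was -0.228, they stood at -1.23, -1.22 and -1.21, past 2-fold.

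Fold changes of the members went with transcript length. Across the 49 genes Pearson's r between log2 length and log2 fold change was -0.34 and Spearman's rho -0.36; genes share libraries, so these are descriptions only. The 12 members with a transcript under 1000 bases had a median of 0.73, with 6 higher and 0 lower, and the 37 longer members a median of 0.27, with 16 higher and 5 lower. Relative to the WT mean, the short members stood 0.56, 0.68 and 0.89 higher in SKO replicates 1, 2 and 3, and the longer ones 0.30, 0.32 and 0.17 higher. Autosomal coding genes in general followed length as well, and the 44 autosomal coding members were set beside them in 8 length bins. In the shortest bin (up to 1194 bases) the medians were 0.73 for 14 members, 7 of which were higher, and 0.59 for genes, of which 49.8% were higher. In the next bin (1195 to 1698 bases) the medians were 0.23 for 9 members and 0.13 for 1581 genes. From 1699 to 4179 bases the members' medians were 0.12 to 0.87, with 1 to 5 members a bin, against -0.27 to -0.03 for genes. In the 2 longest bins they were -0.63 for 5 members and 0.57 for 3 members, against -0.18 and -0.04 for genes, and 1 of the 5 members of 4180 to 5612 bases lay above the median of its bin. Tomm20, with a transcript of 4902 bases, and Timm17a, with 7280, were higher although long. After a correction for length and GC content 20 members were higher and 5 lower, and the members' median was 0.36. Pam16 then rose by 0.51 and Timm8b by 0.71 (edgeR adjusted p = 0.0038 and 0.00122), less than before, and Timm17b by 1.62, more than before. Tomm20l had -0.34 (edgeR adjusted p = 0.0191) with that correction and 0.04 without it.

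**Figure D4:**
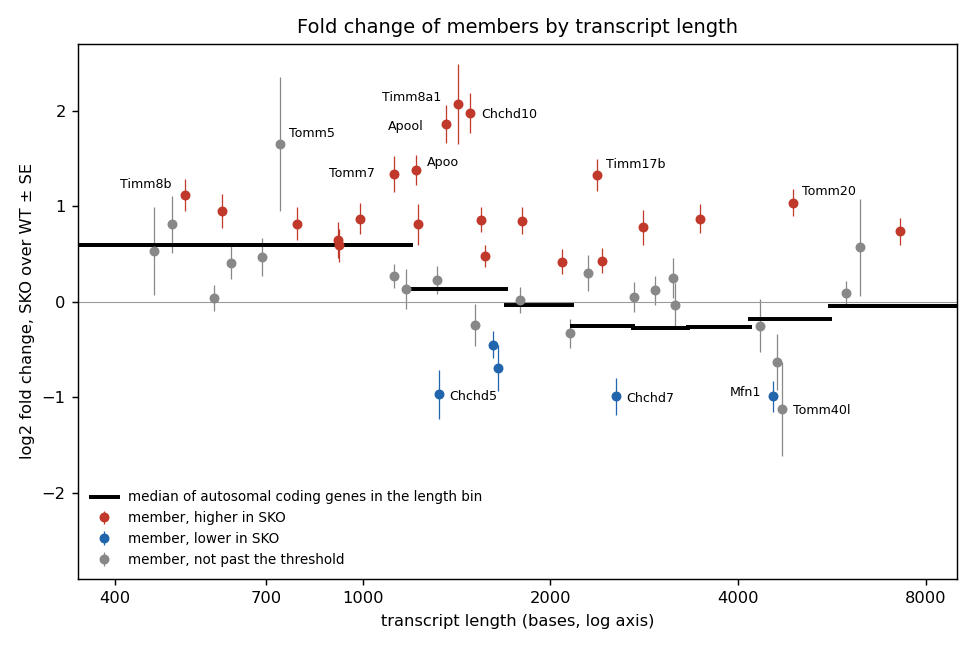
Log2 fold change of each member (SKO over WT ± SE) against transcript length on a log axis; black lines are medians of autosomal coding genes in 8 length bins. The lines fall to -0.27 from 0.59 in the shortest bin, and the autosomal coding members of 1195 to 1698 bases have a median of 0.23 where genes have 0.13.

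Levels differed widely between members. Per kilobase of transcript, WT levels were highest for Tomm22 (451 CPM per kb), Chchd6 (441), Pam16 (358), Timm8b (301), Tomm20l (284) and Mff (265), and lowest for Mtx3 (0.137). In SKO the same scale gave 629.9 for Tomm22, 532 for Chchd6, 689 for Pam16, 654 for Timm8b, 293 for Tomm20l, 356 for Mff and 0.203 for Mtx3. The rare relatives Tomm40l and Timm8a1 stood at 0.0946 and 1.18 CPM per kb in SKO and at 0.206 and 0.279 in WT.

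Partner genes of the same processes moved in both directions. Import partners numbered 26, of which 6 were higher and 3 lower (median -0.11), and partners in cristae and dynamics 37, of which 7 were higher and 5 lower (median -0.02). The shares that were higher, 23.1% and 18.9%, lie near the 21.2% of all genes, and the shares that were lower are 11.5% and 13.5%, against 20.9% of all genes. Among import partners, the J-protein gene Dnajc15 averaged 1156 ± 119 CPM in SKO and 596 ± 65 CPM in WT (edgeR adjusted p = 0.000573), the insertase gene Mtch2 2745 ± 311 CPM in SKO and 1504 ± 107 CPM in WT, and Romo1 33.1 ± 12 CPM in SKO and 11.7 ± 1.19 CPM in WT. These 3 had no overlap between groups. Pmpca, a subunit of the peptidase that removes presequences, the cytosolic chaperone gene Hspa8 and the disaggregase gene Clpb fell by 0.60 ± 0.15, 0.69 ± 0.17 and 0.51 ± 0.16 (edgeR adjusted p = 0.0102, 0.0103 and 0.0294). Among partners in cristae and dynamics, X-linked Fundc2, the scaffold gene Stoml2 and the MICOS gene Micos13 rose by 2.78 ± 0.45, 0.97 ± 0.17 and 0.86 ± 0.17. Pld6, a mitochondrial surface protein of fusion and piRNA production, averaged 7.94 ± 0.937 CPM in SKO and 15.8 ± 2.28 CPM in WT (edgeR adjusted p = 0.00198). Mief1, which recruits Dnm1l to mitochondria, averaged 14.3 ± 3.29 CPM in SKO and 27.6 ± 3.45 CPM in WT (edgeR adjusted p = 0.0039), and the ubiquitin ligase gene Mul1 147 ± 6.64 CPM in SKO and 206 ± 9.12 CPM in WT. Without WT replicate 2, 3 of the cristae and dynamics partners were lower.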

How the data were processed

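The values are raw counts per gene, deposited by the authors as 1 table. The submitters' processing notes name featureCounts 1.5.0-p3, HISAT2 2.0.5 and Trim Galore 0.6.4, and the build GRCm38 (mm10). Which annotation was counted, whether strand was used and how multi-mapping reads were treated is not given in the sources used here. Column headers were matched to sample titles through genotype and number. Smart-seq2 reads carry no molecular identifiers, so limits from counts cover counting error only.

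Group differences were tested in edgeR 4.0.16 under R 4.3.3 (quasi-likelihood F test, TMM scaling), and p-values were adjusted by Benjamini and Hochberg's method over the 19776 genes that filterByExpr kept (minimum count 10, minimum total 15). A gene is called at an adjusted p under 0.05. Each SE was taken from the size of the log2 fold change and its F value. CPM scales counts by the effective library size. Length and GC content are those of each gene's longest-coding GENCODE M21 transcript, and 98.8% of the table's rows matched 1 gene. Promoter windows are RefSeq's. Alternatives were DESeq2 1.42.0, limma-voom (limma 3.58.1), other scalings, filters and thresholds, each library left out, the replicate number as a block, and a per-library loess correction for length and GC content (span 0.3). Simulated data with 200 changed genes among 19192 tested gave recoveries of 50% for 2-fold and 94% for 4-fold changes, with 3.36% of calls on unchanged genes. In the data 42.0% of genes were called, a far larger share, so these rates need not hold for the comparison itself. Members and lists were chosen with earlier results of these data known. The naming rule gave values in every library for called members with at least a 2-fold change and no overlap between groups, and for paralog pairs holding a called member. It also named up to 3 called partner genes per list and direction. Other members are named by role.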

Additional observations from a re-analysis of the deposited data

How the results depend on the processing

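Of the 27 called members, 18 (16 higher, 2 lower) were called in every 1 of the 16 refits in which they were tested. DESeq2, DESeq2 size factors and no filter kept the side of the threshold of all 49 members, and limma-voom of 48. Only 41 members were tested with the filter of 5 CPM in 3 libraries. Under library totals the members' median was 0.24, import partners had 8 lower, and cristae and dynamics partners 4 higher and 12 lower. In that setting all genes were also called lower more often than higher, so these counts need not be particular to the partners. The values of 7 uncalled members then turned negative, Mtx2 (-0.121), Immt (-0.195), Phb2 (-0.006), Timm44 (-0.222), Tomm20l (-0.189), Timm23 (-0.107) and Tomm70a (-0.154), and Timm29 turned to 0.004 with upper quartile factors. The length and GC correction gave a members' median of 0.36 and 3 lower cristae and dynamics partners, and turned Mfn2 (0.167), Timm50 (0.004), Timm29 (0.343) and Tomm20l (-0.342). Same-numbered libraries did not deviate together (correlations of -0.0221, -0.0511 and -0.0655). With 3 libraries a group these correlations cannot decide whether equal numbers mark pairs, and the labels do not say so. The replicate block gave 3 lower members, ended the calls of Mff, Mtx1, Tomm40 and Timm21 (adjusted p = 0.0681, 0.0678, 0.0613 and 0.0838) and called Tomm5 (1.834, 0.0375); together with the length and GC correction it gave 3 lower members, a median of 0.36, 1 lower import partner and 3 lower cristae and dynamics partners, with Mfn2 at 0.172, Timm29 at 0.356 and Tomm20l at -0.344, and with Tomm34 called (0.731, adjusted p = 0.038). DESeq2 called 5 import and 8 cristae and dynamics partners lower. The 5 CPM filter left 2742 lower genes of all tested, fewer genes being tested. An adjusted p of 0.01 gave 2 lower members, 3 higher and 0 lower import partners, 3 lower cristae and dynamics partners, and 2611 higher and 2553 lower genes in all. Requiring 2-fold gave 8 higher and 0 lower members, 3 and 0 import partners, 2 and 1 cristae and dynamics partners, and 2321 and 2562 genes in all. Leaving out 1 library at a time gave 16 to 22 higher and 2 to 6 lower members, and a members' median of 0.35 to 0.51. It also gave 3 to 7 lower cristae and dynamics partners, and a ratio of Tomm40l over Tomm40 of -0.18 to 0.35. In the same refits uncalled members ranged around 0: Immt from -0.085 to 0.156, Timm44 from -0.079 to 0.067, Tomm20l from -0.125 to 0.124, Mfn2 from -0.573 to 0.017, Timm23 from -0.085 to 0.302 and Timm29 from -0.13 to 0.111. The cause of these changes was not tested. Members averaging under 2 CPM in both groups (Tomm5, Tomm40l, Mtx3, Timm8a1 and Chchd2-ps) rest on few counts.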
